A study of Oryza sativa Japonica Group with 30 samples.

Results

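A set of 9 rice genes known from Polycomb silencing and from the early endosperm is described here, out of 55801 gene identifiers in the deposited values. Its members are fixed by identifier, with no threshold on level. They are 6 genes for subunits of Polycomb repressive complex 2 (PRC2), namely FIE1, FIE2, EMF2a, EMF2b, CLF and iEZ1, and 3 genes for type I MADS-box transcription factors, MADS78, MADS79 and MADS87. The members are identified by their LOC_Os loci; the names come from the list that defined the set. An EZ1 gene at the matching place of chromosome 3 in the RefSeq table was the only one of the 9 names matched there. The table also holds 1 gene named fie on chromosome 8, which could be FIE1 or FIE2 and was not assigned to either. The other 8 names therefore rest on general rice nomenclature.

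PRC2 is a chromatin complex that places the repressive mark H3K27me3 on histone H3. It joins a catalytic subunit of the E(z) type, a zinc-finger subunit of the Su(z)12 type and WD40 subunits of the ESC and p55 types. In the endosperm, the tissue that feeds the embryo, PRC2 takes part in the timing of early development and in genomic imprinting, in which the copy from one parent is expressed. Type I MADS proteins are a separate class of the MADS-box family, and in rice several of them are known from the syncytial stage of the endosperm, before its nuclei are walled off into cells. FIE1 and MADS87 are known as imprinted genes and as heat-sensitive in young rice seeds.

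RNA came from whole caryopses (the grain with its fruit coat) of Oryza sativa Japonica Group, taken 7 days after pollination, in 30 samples that formed 10 groups of 3. The wild type was ZH11, and the other 4 genotypes were ONAC127 over expressed, ONAC129 over expressed, ONAC127 mutant and ONAC129 mutant. Each of the 5 genotypes was grown in paddy fields under natural heat stress, with about 6 h a day above 35 °C and a peak near 40 °C, or under normal cultivation, with 3 days above 35 °C and a daytime mean near 30 °C. The promoter of the overexpression lines, the mutant alleles and the number of independent lines are not given in the labels, nor is it stated whether the samples of a group are separate plants.

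The design allows each other genotype to be compared with ZH11 under each condition, and heat with normal growth within each genotype. None of these comparisons could be made for the 9 genes. All 8 tables analysed here, although named for single comparisons, held 1 and the same column of values: a mean of normalised read counts over all 30 libraries. These tables are text versions of workbook sheets, and whether the workbooks hold further columns is not known. The levels below therefore average heat with normal growth and mutant with overexpressing and wild-type plants, and values per sample are not analysed here. In a bulk caryopsis sample, fewer cells of a type and less RNA per cell cannot be told apart either.

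Depth was read from the lowest values of the table, which fall on 30 steps, 1 for a single read in each of 30 libraries. Relative depths (size factors) ran from 0.551 to 1.64, and 10 libraries lay at or below 0.741 while the other 20 lay at or above 1.09. Since a read in the shallowest library weighs most, these depths set an upper limit on the counting error of any pooled mean. That limit is given below as the largest counting SE. It covers counting error only and not the spread between plants, groups or conditions. Levels of 5 tissue marker genes, found by name in the reference, are given beside the whole-caryopsis label. None of them was listed for the fruit coat, so they do not test that part of the label. The endosperm genes GluA2 and GBSSI stood at 47812 and 39906 normalised counts and the oil-body gene Ole18 of embryo and aleurone at 21160. The nucellus regulator MADS29 had 109.6 and the shoot meristem gene OSH1 had 15.3.

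All 9 genes were read, as were 40831 of all 55801 genes. All 9 lay above the median of 15.9 normalised counts over those 40831 genes above 0. For the MADS genes this depends on the genes counted: among genes of at least 1 normalised count MADS78 and MADS87 exceeded 28.9% and 30.3%, and among genes of at least 10 MADS78, MADS87 and MADS79 exceeded 8.38%, 10.2% and 37.7%, all below the median. The 6 PRC2 genes exceeded at least 57.6% of the latter (FIE1). The 6 PRC2 genes ranged from 163 to 1005 normalised counts, with a median of 241. The 3 MADS genes ranged from 16.8 to 70.4, with a median of 18.6. MADS78, the lowest, exceeded the median of 15.9 for genes above 0 by less than its largest counting SE of 1.01. Its side of that median is therefore not settled. Together the 9 genes held 0.0213% of all normalised counts, and the MADS genes alone held 0.000911%. These values are counts of reads and are not divided by transcript length, which the sources used here do not give for these loci. They rank reads, not transcripts.

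**Figure D1:**
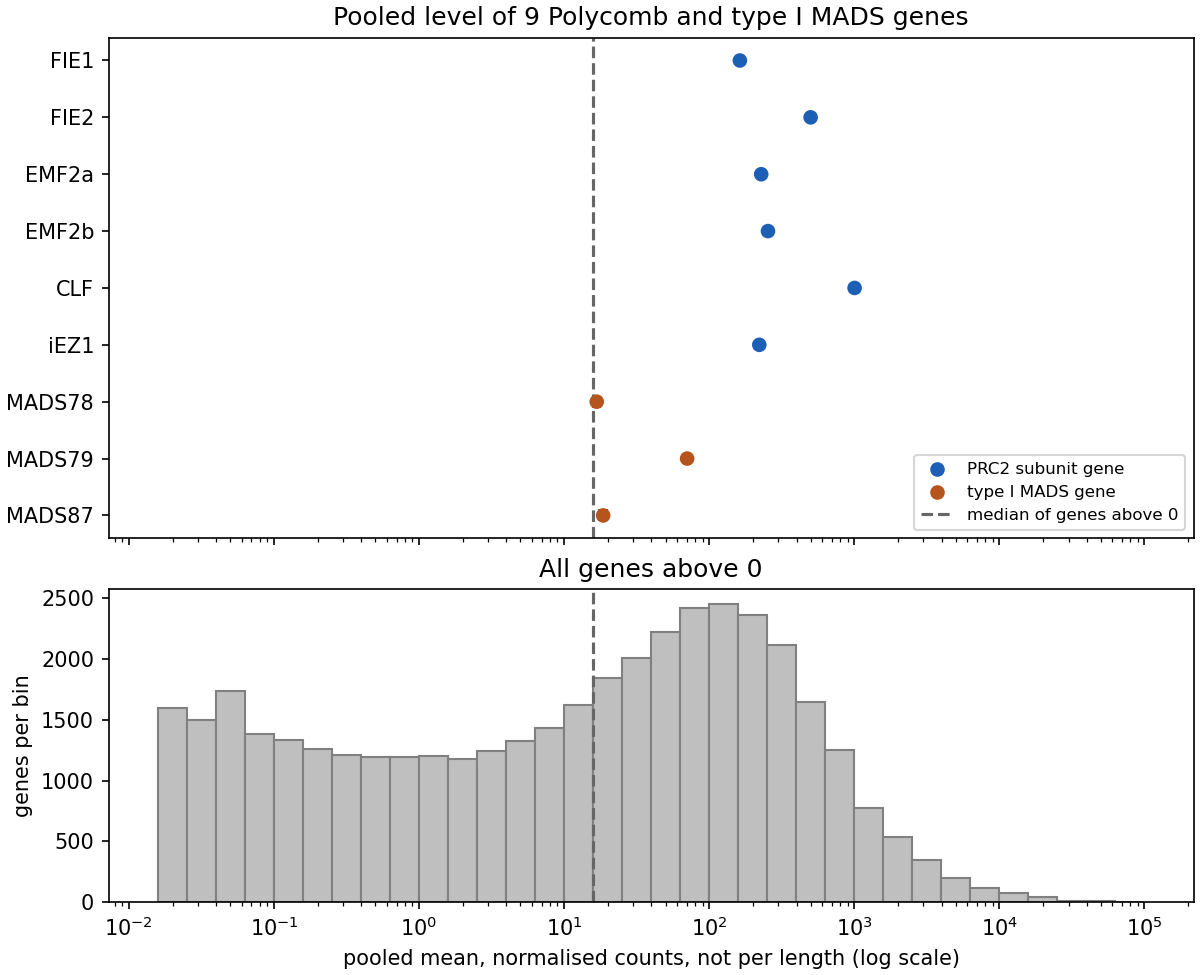
The upper panel plots the pooled mean of each of the 9 genes in normalised counts on a log axis, with the largest counting SE as a horizontal bar, which is narrower than the symbols; the lower panel shows the number of genes per bin of the same axis for all 40831 genes above 0. The 6 PRC2 genes (blue) sit between 163 and 1005, whereas MADS78 at 16.8 and MADS87 at 18.6 (orange) sit just to the right of the dashed median at 15.9 and MADS79 stands at 70.4.

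The catalytic subunit genes, whose products methylate histone H3, held the highest member. CLF (LOC_Os06g16390, chromosome 6) stood at 1005 normalised counts (largest counting SE 7.80), higher than 94.9% of the genes above 0. iEZ1 (LOC_Os03g19480, chromosome 3), the other gene of this type, had 221 (largest counting SE 3.66), higher than 81.0% of them. CLF thus received 4.54 times the normalised reads of iEZ1, with a counting SE of at most 0.0828 on that ratio. Of the reads of the pair, 18.1% fell on iEZ1.

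The zinc-finger subunit genes were close to each other. EMF2b (LOC_Os09g13630, chromosome 9) had 254 normalised counts (largest counting SE 3.92) and EMF2a (LOC_Os04g08034, chromosome 4), which in rice is needed for the normal course of endosperm development, had 228 (largest counting SE 3.72). The ratio of EMF2b to EMF2a was 1.11 (largest counting SE 0.025). The gap of 25.9 normalised counts was 4.79 times its own largest counting SE, so counting error is small beside it. The spread between samples is not known, and neither value is per length.

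The ESC-type WD40 genes lie almost side by side on chromosome 8. FIE2 (LOC_Os08g04270) had 500.3 normalised counts (largest counting SE 5.50), higher than 89.9% of the genes above 0. FIE1 (LOC_Os08g04290), the imprinted copy, had 163 (largest counting SE 3.14), the lowest of the 6 PRC2 genes and higher than 77.1% of the genes above 0. FIE2 received 3.07 times the normalised reads of FIE1 (largest counting SE 0.0682), and 24.5% of the reads of the pair fell on FIE1. The genes are related copies, and the handling of reads that match both is not given in the sources used here, so the split between them is uncertain.

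The type I MADS genes received fewer reads. MADS79 (LOC_Os01g74440, chromosome 1) had 70.4 normalised counts (largest counting SE 2.06), higher than 66.4% of the genes above 0. MADS87 (LOC_Os03g38610, chromosome 3) had 18.6 (largest counting SE 1.06) and MADS78 (LOC_Os09g02830, chromosome 9) had 16.8 (largest counting SE 1.01), higher than 51.5% and 50.5% of them. MADS78 and MADS79, which are known in rice as partly redundant regulators of endosperm cellularisation, differed 4.20 times in normalised reads, with MADS79 the higher (largest counting SE 0.281). MADS87 and MADS78 differed by 1.81 normalised counts against a largest counting SE of 1.46. Since that SE is an upper limit, whether the gap exceeds counting error is not settled.

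In descending order of normalised reads the 9 genes ran CLF, FIE2, EMF2b, EMF2a, iEZ1, FIE1, MADS79, MADS87 and MADS78. Of the 8 steps in this order, that from EMF2a to iEZ1 (6.84 normalised counts, 1.31 times its largest counting SE) and that from MADS87 to MADS78 (1.24 times) were less than 2 times that error. The other 6 steps were between 4.79 and 52.9 times it. Since this error is an upper limit, the order at the smaller steps is not settled. In reads, every MADS gene lay below every PRC2 gene, and the nearest pair across the classes, FIE1 and MADS79, was 92.3 normalised counts apart.

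The number of reads behind each mean can be bounded from the range of depths. Between 16622 and 49578 reads lay behind the value of CLF, and between 2691 and 8026 behind that of FIE1. For MADS87 the bounds were 307 and 917 reads and for MADS78 they were 277 and 828. The counting error of MADS78 was therefore at most 6.00% of its mean, against 0.776% for CLF. With this many reads, no value of the 9 could be split into reads per library, so the number of libraries that read each gene is not known.

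A pooled mean also limits what any part of the design can hold, since no group mean can be negative. The 5 groups of one condition cannot have averaged more than 325 normalised counts for FIE1 or 37.2 for MADS87, the genes known as heat-sensitive, which they would reach only if the other condition had none. A single group of 3 cannot have averaged more than 1627 for FIE1, 186 for MADS87 or 168 for MADS78. The pooled values give no lower limit for any group, so neither a rise nor a fall with heat or genotype can be read from them.

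The loci around the 9 genes, taken by locus number, differed widely in level. FIE2 and FIE1 enclose a single locus, LOC_Os08g04280, at 301 normalised counts, and the levels fell from 500.3 at FIE2 through 301 to 163 at FIE1 and 27.6 at LOC_Os08g04300. Within 5 loci of either gene, the neighbours outside this block of 4 lay at or below 2.80, whereas within 10 loci LOC_Os08g04180 had 4220 and LOC_Os08g04390 had 773. LOC_Os08g04310 had 2.80 and LOC_Os08g04250 had 1.38, LOC_Os08g04340 had 0.483 and LOC_Os08g04240 had 0.382. LOC_Os08g04230 had 4 reads in all, in 4 libraries, and LOC_Os08g04220, LOC_Os08g04260, LOC_Os08g04320 and LOC_Os08g04330 had no read in any library, for which 3 reads in the shallowest library would allow up to 0.181 normalised counts.

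Of the 9 genes, EMF2a exceeded its neighbours by the widest ratio. Its 228 normalised counts were 7.67 times the highest of the 10 nearest loci, of which 8 lay below 1 and 5 had no read. CLF was 6.07 times its highest neighbour and FIE2 was 1.66 times LOC_Os08g04280. These 3 genes exceeded all 10 of their neighbours. Among all 18112 genes between the lowest and the highest member in level, 15.3% exceeded their 10 nearest loci in the same way. That range starts at 16.8 normalised counts, whereas these 3 genes stood at 228 or more. The share among genes of their own level was not computed. With 10 loci on either side EMF2a alone of the 9 exceeded all its neighbours, since CLF then had 1 higher locus and FIE2 had 2, and the share among all genes in the range was 6.61%. iEZ1 lay in a well-read stretch, where 4 of 10 neighbours were higher than it and the median neighbour had 149 normalised counts.

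The MADS genes had higher loci close by, as had FIE1, EMF2b and iEZ1. Among all 18112 genes in the members' range of level, only 15.3% exceeded their 10 nearest loci. MADS78 had 7 neighbours of 10 without a read, yet LOC_Os09g02814 and LOC_Os09g02810, 2 and 3 places before it, stood at 267 and 231 normalised counts. MADS87 lay next to LOC_Os03g38620, which had 1 read in all 30 libraries, and 2 places from LOC_Os03g38640 at 117 normalised counts. For MADS79, 3 of 10 neighbours were higher, up to 293. EMF2b had 1 higher neighbour, LOC_Os09g13610, at 303 normalised counts. Whether reads of overlapping or antisense genes were kept apart is not given in the sources used here.

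**Figure D2:**
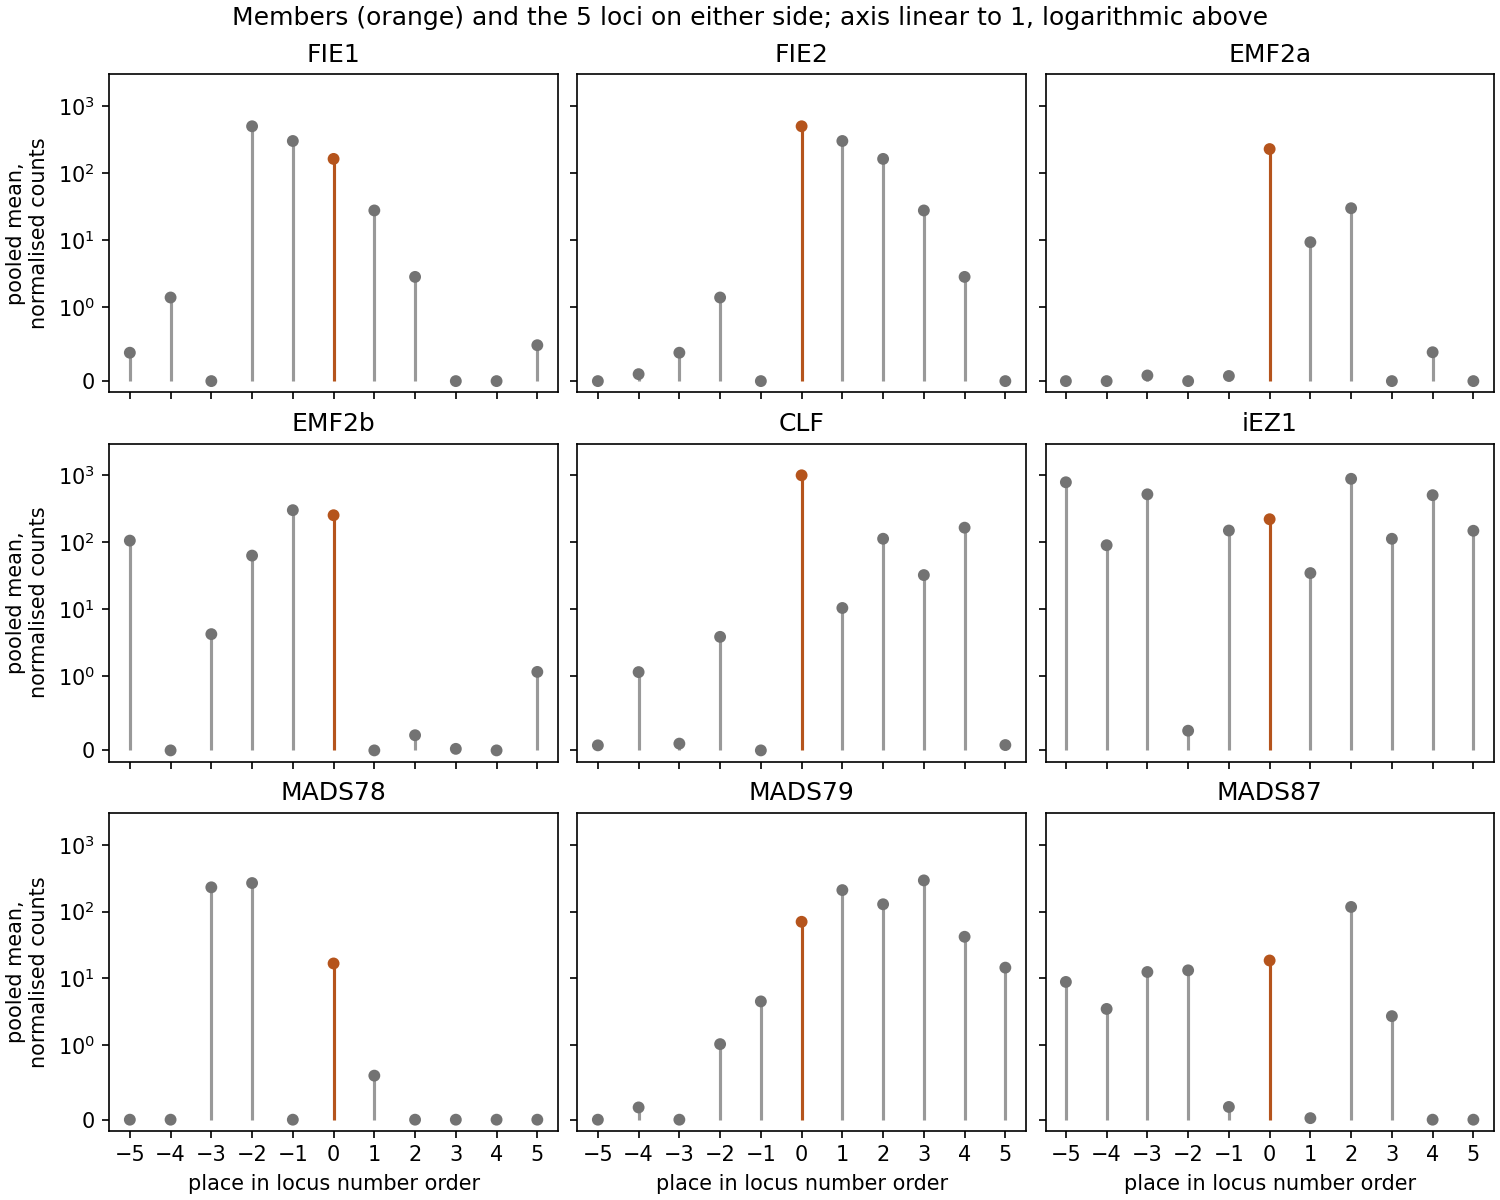
Each panel plots the pooled mean in normalised counts (axis linear up to 1 and logarithmic above) of 1 of the 9 genes (orange, place 0) and of the 5 loci on either side in locus number order (grey). EMF2a, CLF and FIE2 stand above the 10 neighbours shown, iEZ1 lies among loci with a median of 149, and FIE1 and FIE2 appear in each other's panels 2 places apart.

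Other genes tied to the same machinery were taken from a list of 6 loci. MSI1 (LOC_Os03g43890), the p55-type WD40 subunit of PRC2, had 613 normalised counts (largest counting SE 6.09). LHP1 (LOC_Os10g17770), a reader of H3K27me3, had 367 (largest counting SE 4.71). Both were found by name at the matching place in the reference. The other 4 loci, listed from general nomenclature as 3 candidates for PRC2 partners and 1 for a type I MADS gene near MADS78, were not found by name and are given by locus only. The partner candidates LOC_Os12g34850, LOC_Os02g05840 and LOC_Os08g01420 had 305, 257 and 53.3 normalised counts. The MADS candidate LOC_Os09g02780 had 241, more reads than any of the 3 MADS genes described above. All 6 lay above the median of genes above 0, and their own median was 281. The lowest of them, LOC_Os08g01420 at 53.3, lay below MADS79 at 70.4, which exceeded 37.7% of genes of at least 10 normalised counts. Among genes of at least 10, LOC_Os08g01420 thus lay below the median.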

How the data were processed

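The values are pooled signals deposited by the authors: per the file headers, 1 baseMean per gene, DESeq2's name for a mean of read counts divided by size factors. Per the submitters' processing notes, CASAVA 1.7, HISAT2 2.0.5 and DESeq2 were used. No label or header names the counter, build, annotation or strand setting, which are thus not given in the sources used here. Samples were grouped by their titles, but 0 columns hold a single sample, so no test was run.

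From this column the weight of single reads was taken, library by library, as every low value (under 0.07) that is not a sum of smaller ones within 1e-11. A size factor is the inverse of 30 times that weight. Neighbouring values under 0.15 were written as sums of at most 8 whole reads within 2e-15, and all 8 such neighbours had exactly 1 solution; the method was tested on simulated data. The largest counting SE of a mean is the square root of the mean over 30 times the lowest size factor. A percentile is the share of genes with a lower value.

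Names were sought in the RefSeq table of assembly ASM3414082v1, where 0 of 39387 genes carry a LOC_Os identifier. They were accepted on the same chromosome where the relative places differed by less than 0.1. The relative place of a locus was its number over the highest locus number of the chromosome. That of a RefSeq gene was its start over the highest start, so a matching place rests on locus numbering and is approximate. The text names the 9 members, the 6 related loci, the markers and the neighbours of FIE1 and FIE2. The opening gives the members in the order of their list, whereas the paragraphs on levels put the higher gene of each kind first. Neighbours of other members were named after their values were seen. The members and lists were chosen with earlier results of these data known. Planned values per length need lengths that the table does not give for these loci and were not computed. Python 3.11.15, numpy 2.4.6, pandas 2.3.3, scipy 1.17.1 and matplotlib 3.10.9 were used.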

Additional observations from a re-analysis of the deposited data

How the results depend on the processing

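The count of 9 genes read held with at least 1 and with at least 10 normalised counts required. Of all 55801 genes, 40831 lay above 0. The median of those 40831 genes, 15.9 normalised counts, is above 10, so most of them also reached 1 and 10. The exact shares of all genes that reached 1 or 10 were not computed. The percentile of the median member (iEZ1), 81.0 among genes above 0, was 86.1 among all genes, 72.7 among genes of at least 1 and 64.8 among genes of at least 10. The lowest gene, MADS78, went from 50.5 to 63.8, 28.9 and 8.38 under the same backgrounds, and MADS87 from 51.5 to 64.5, 30.3 and 10.2, and MADS79 from 66.4 to 75.4, 51.7 and 37.7, as each background keeps fewer or more low genes by construction. With 10 loci taken on either side, 1 gene (EMF2a) exceeded all its neighbours instead of 3, against 6.61% of all genes in the same range. FIE2 then had 2 higher neighbours and CLF had 1, at 1.04 times its level. Reads of low neighbours were the same in number (8 solved) with a tolerance 10 times wider or narrower. Ratios between paired genes were computed without length division only. Settings that leave out a replicate were not run, because no value per sample is analysed here. No paired analysis was possible because replicates are averaged into 1 value per gene.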
